A study of Mus musculus with 4 samples.

Results

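The 33 antioxidant and glutathione genes described here encode the enzymes that remove superoxide and peroxides, the thioredoxin and glutathione systems that keep those enzymes reduced, and the Nrf2 pathway that regulates many of them. They were chosen by symbol, and all 33 were found among the 24452 genes of the table, which writes symbols in capitals (GPX4, GCLC and NFE2L2 for Gpx4, Gclc and Nfe2l2). The table holds RNA sequencing of liver regulatory T cells (Tregs), the Foxp3-expressing CD4 T cells that restrain immune responses, from young mice. There were 2 libraries of Altre-WT Tregs and 2 of Altre-KO Tregs, in which the long non-coding RNA Altre was knocked out. The study compares them to find what the loss of Altre changes in Tregs before ageing. The labels do not describe the knockout allele, the sort, the exact age, the sex or the strain, nor whether a genotype's 2 libraries represent different mice; p-values then measure only the spread between these libraries, which may be technical. The targeted transcript was not analysed here, and genotypes were taken as labelled.

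Superoxide dismutases turn superoxide into hydrogen peroxide, which catalase, glutathione peroxidases and peroxiredoxins then break down. Glutathione peroxidases draw their electrons from glutathione, which glutamate-cysteine ligase and glutathione synthetase make and glutathione reductase regenerates. Most peroxiredoxins draw theirs from thioredoxin, which thioredoxin reductase regenerates. Keap1 holds the transcription factor Nrf2 (gene Nfe2l2) at low levels until oxidants or electrophiles modify it, and Nrf2 then binds antioxidant response elements in its target genes. In T cells, glutathione is known to support activation and proliferation, and Gpx4 to protect against death by lipid peroxidation.

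Promoter sequences of 28 of the 33 genes were in the RefSeq table for GRCm38.p6, covering 250 bases before to 50 bases after each listed start. The core letters of the antioxidant response element, TGACNNNGC, were searched on both strands. They occurred in at least 1 promoter of 7 of the 28 genes (25.0%), against 14.0% of the 27025 genes in that table. The 28 genes had 39 listed promoters and the 27025 genes had 32851. The shares were not adjusted for the number of promoters per gene. In Msrb2 and Srxn1 the match lay after the start. In the other 5 of the 7 it lay before (17.9% of the 28 genes, against 11.5% of the 27025). These stretches are shown because the 5 genes include the Nrf2 gene itself and 3 genes known as Nrf2 targets (Gclm, Prdx1 and Txnrd1). Each is printed 5′ to 3′ on the gene's strand, with the matching letters in capitals. In all but Nfe2l2 the match is on the opposite strand, so that the capitals read as its reverse complement.
Nfe2l2 (chr2:75704885-75704913, minus strand, match 240 bases before the start): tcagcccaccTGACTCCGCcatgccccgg
Gclm (chr3:122245413-122245441, plus strand, match 134 bases before the start): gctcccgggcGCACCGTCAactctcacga
Prdx1 (chr4:116685456-116685484, plus strand, match 133 bases before the start): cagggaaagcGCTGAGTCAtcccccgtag
Txnrd1 (chr10:82859104-82859132, plus strand, match 92 bases before the start): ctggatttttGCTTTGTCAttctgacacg
Sod1 (chr16:90220696-90220724, plus strand, match 56 bases before the start): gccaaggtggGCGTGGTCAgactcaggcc
The Txnrd1 stretch lies inside the span of its gene (82833951 to 82897712), before a listed start within that span. A match describes these letters only and does not show binding. The values of these 5 genes, given with their groups below, did not share a direction between genotypes.

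Levels are in CPM, reads scaled so that the listed genes of each library add up to the same total. A difference is the knockout mean minus the wild-type mean of log2(CPM + 1), tested with limma over all 10486 genes that passed a filter on low values, with p-values adjusted over all of them. This scale understates the change of low genes. Reads on listed genes, estimated from the values, numbered 1828773 to 3266133 per library, and 1 read was worth 0.306 to 0.547 CPM. Knockout replicate 1 stood apart in having 32.8% of its reads on listed genes, while the others had 18.8% to 21.5% there. The 9 listed Treg and CD4 T cell markers were all present. Foxp3 itself was at 160.4 and 140.5 CPM in the wild-type libraries and at 79.5 and 162.4 CPM in the knockout libraries, lowest in knockout replicate 1. Its part in the levels below was not tested. Among markers of other cells, hepatocyte genes were low (19 of 20 under 5 CPM in every library, and 9 at 0 in all), as were erythroid genes (summed level 7.13 to 15.6 CPM over 9 genes). Kupffer cell and macrophage markers (12 genes, 2 at 0 in all libraries) summed to 216.5 and 315 CPM in the wild-type libraries and 319 and 184.6 CPM in the knockout libraries. Of these 12, 5 were under 5 CPM in every library, among them Clec4f and Marco. The others included Lyz2 (66.1 to 165.0 CPM), Csf1r (29.0 to 60.1 CPM), C1qa (16.9 to 28.2 CPM) and the Kupffer cell marker Cd5l (5.50 to 12.2 CPM). Neutrophil genes were at or near 0. B and plasma cell markers (8 genes) summed to between 159.7 and 306.4 CPM, most of it from the immunoglobulin joining chain gene Jchain, while Pax5 stayed at 0.42 CPM or less. NK and CD8 T cell markers (8 genes) summed to between 24.6 and 40.8 CPM. Endothelial and stellate markers (11 genes) summed to between 178.5 and 226.6 CPM, nearly all from Pecam1, which T cells also express. In bulk samples, fewer cells of a type and less RNA per cell cannot be told apart.

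No antioxidant or glutathione gene passed the test between genotypes. Of the 33, 32 passed the filter, and 0 of these 32 had a limma adjusted p under 0.05, against 0.0381% of all tested genes, which is 4 genes. At an unadjusted p under 0.05 there was 1 of 32 (Glrx3), against 3.66% of all tested genes, and limma-voom on estimated reads gave the same counts, 0 and 1. The limma adjusted p was 0.999 for each of the 32. In the authors' deposited table the adjusted p of every one of the 33 was 1, and their smallest unadjusted p was 0.388, for Gclm. Of the 32 genes, 18 were higher and 14 lower in knockout, where 47.9% of all tested genes were higher. Their median log2 fold change was 0.016, against -0.013 over all tested genes. Without regard to sign, the median difference was 0.13 for the 32 and 0.17 for all tested genes.

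The intervals show how large a difference these libraries leave room for. The 95% limma interval lay within 2-fold either way for 26 of the 32 genes, against 69.5% of all tested genes. It lay within 1.5-fold for 12 of the 32, against 31.3%. The half-width of the interval had a median of 0.53 on the log2 scale. Both knockout libraries lay above both wild-type libraries for 6 of the 32 genes (Gpx4, Txnrd1, Msrb2, Gclc, Gsr and Hmox2), against 14.7% of all tested genes. They lay below for 0 of the 32, against 16.1%, and the other 26 overlapped. Together, 6 of the 32 did not overlap, against 30.8% of all tested genes. With 20.8 prior degrees of freedom, limma took these intervals and p-values mostly from the spread of genes of similar level, less from the spread of the gene itself.

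**Figure D1:**
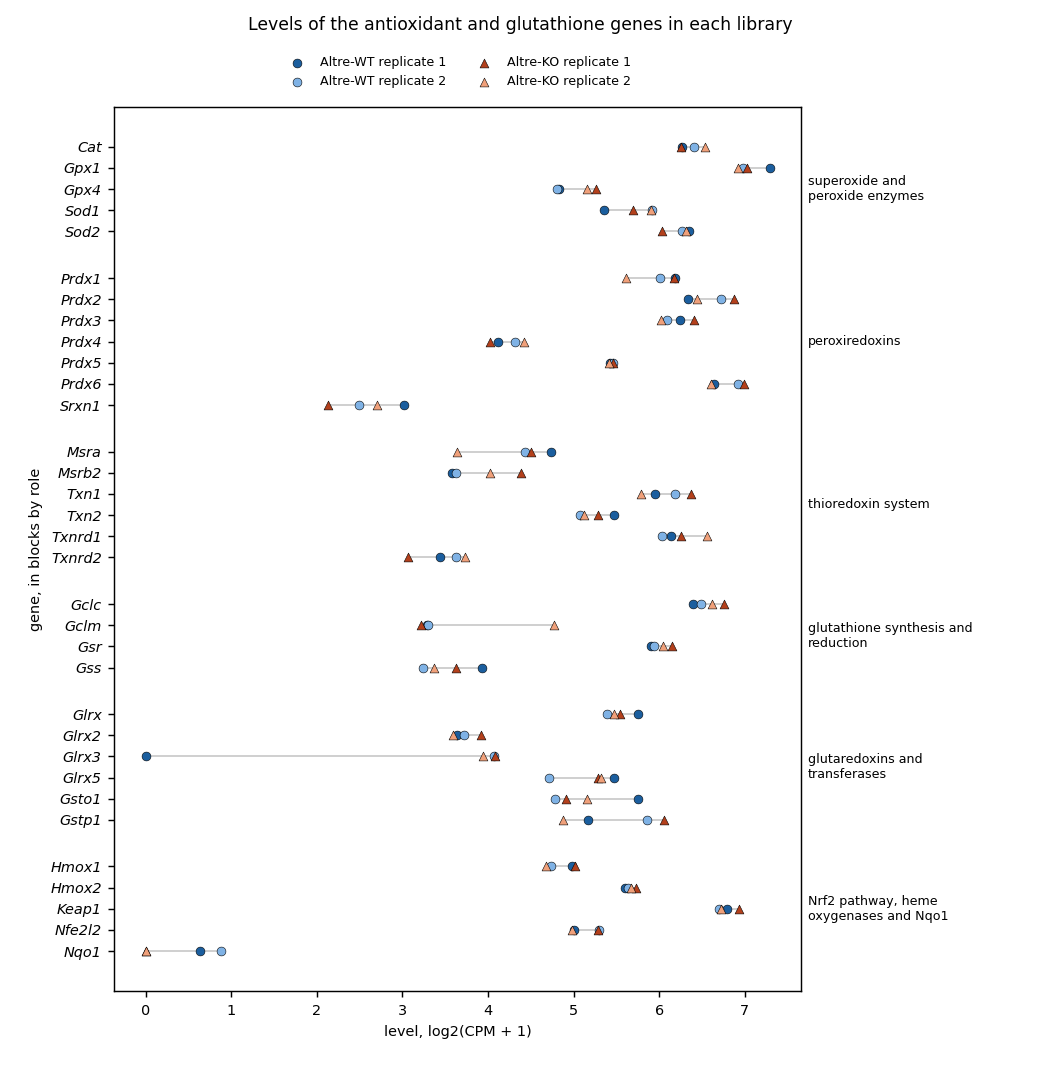
Level of each of the 33 genes in each library, as log2(CPM + 1) on the x axis, with circles for wild type, triangles for knockout and a grey line from the lowest to the highest library. Genes are in blocks by role; most points of a gene lie close together, while Glrx3 in wild-type replicate 1 and Gclm in knockout replicate 2 lie far from their other 3 libraries.

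Per length, the levels ran from glutathione peroxidase to near nothing. Relative to the merged exons of its protein-coding transcripts, Gpx1, the main cytosolic glutathione peroxidase, had the highest mean level at 123 CPM per kilobase. Sod1 followed at 81.5, the thioredoxin gene Txn1 at 63.7, the glutathione transferase gene Gstp1 at 56.5 and Prdx2 at 52.0 CPM per kilobase. At the other end were Srxn1 at 1.83, Gclm at 2.33, Glrx2 at 2.70 and Glrx3 at 2.78 CPM per kilobase. Txnrd2 came next at 2.96 CPM per kilobase. The mean of Glrx3, and so its place here, includes a listed 0 in wild-type replicate 1, while its highest library stood at 3.83 CPM per kilobase. Nqo1, a quinone reductase widely used as a readout of Nrf2, was lowest at 0.224 CPM per kilobase. It rested on 1 and 2 estimated reads in the wild-type libraries and stood at 0 for each knockout library, so it was not tested and no fold change is given.

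Among the enzymes that act on superoxide and peroxide, Gpx4 was the one whose genotypes did not overlap. Gpx4, the selenoenzyme that reduces lipid peroxides in membranes (chromosome 10, 80047166 to 80056439), was at 27.3 and 26.9 CPM in the wild-type libraries and at 37.4 and 34.7 CPM in the knockout libraries. Both knockout libraries were above both wild-type libraries, with a log2 fold change of 0.40 (95% interval -0.17 to 0.96, limma adjusted p = 0.999). Gpx1 (chromosome 9, 108338903 to 108340343) was at 155.3 and 124.8 CPM in the wild-type libraries and at 128.9 and 120.2 CPM in the knockout libraries. Its genotypes overlapped, wild-type replicate 1 stood highest, and the log2 fold change was -0.16 (95% interval -0.53 to 0.21, limma adjusted p = 0.999). Without wild-type replicate 1 that difference was -0.0040.

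The dismutases and catalase differed less between genotypes than between libraries of a genotype. Sod1, the cytosolic dismutase and 1 of the 5 genes with a match before the start, was at 39.9 and 59.3 CPM in the wild-type libraries and at 50.8 and 58.9 CPM in the knockout libraries, both knockout values falling between the wild-type ones. Sod2, the dismutase of the mitochondrial matrix, was at 80.4 and 76.1 CPM against 64.6 and 78.3 CPM. Cat, the peroxisomal catalase, was at 76.0 and 83.7 CPM against 75.0 and 91.5 CPM. Over these 5 enzymes 3 were higher and 2 lower in knockout, and the median of their log2 fold changes was 0.054.

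None of the peroxiredoxins separated the genotypes. Prdx5, which acts in mitochondria, peroxisomes and cytosol, was nearly level in all 4 libraries, at 42.1 and 42.9 CPM in the wild-type libraries and 42.9 and 41.5 CPM in the knockout libraries. Prdx1, an abundant cytosolic peroxiredoxin (chromosome 4, 116685544 to 116700822), was at 71.6 and 63.5 CPM in the wild-type libraries and at 71.0 and 47.8 CPM in the knockout libraries. Knockout replicate 2 alone was low, and the log2 fold change of -0.21 (95% interval -0.68 to 0.27, limma adjusted p = 0.999) was 0.074 without it. Prdx2, also cytosolic, was at 79.8 and 104.3 CPM against 115.7 and 85.5 CPM, and Prdx6, which works with glutathione instead of thioredoxin, at 98.4 and 119.8 CPM against 125.5 and 96.5 CPM. In both, knockout replicate 1 was the highest library and knockout replicate 2 lay close to wild-type replicate 1. The mitochondrial Prdx3 lay between 63.9 and 83.9 CPM and Prdx4, of the endoplasmic reticulum, between 15.3 and 20.3 CPM. Srxn1, which repairs overoxidized peroxiredoxins, was at 7.11 and 4.62 CPM against 3.37 and 5.50 CPM, from 11 to 13 estimated reads per library. Its interval was correspondingly wide, from -1.53 to 0.85. Over the 7 genes, 4 were higher and 3 lower, and the median of their log2 fold changes was 0.0023.

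**Figure D2:**
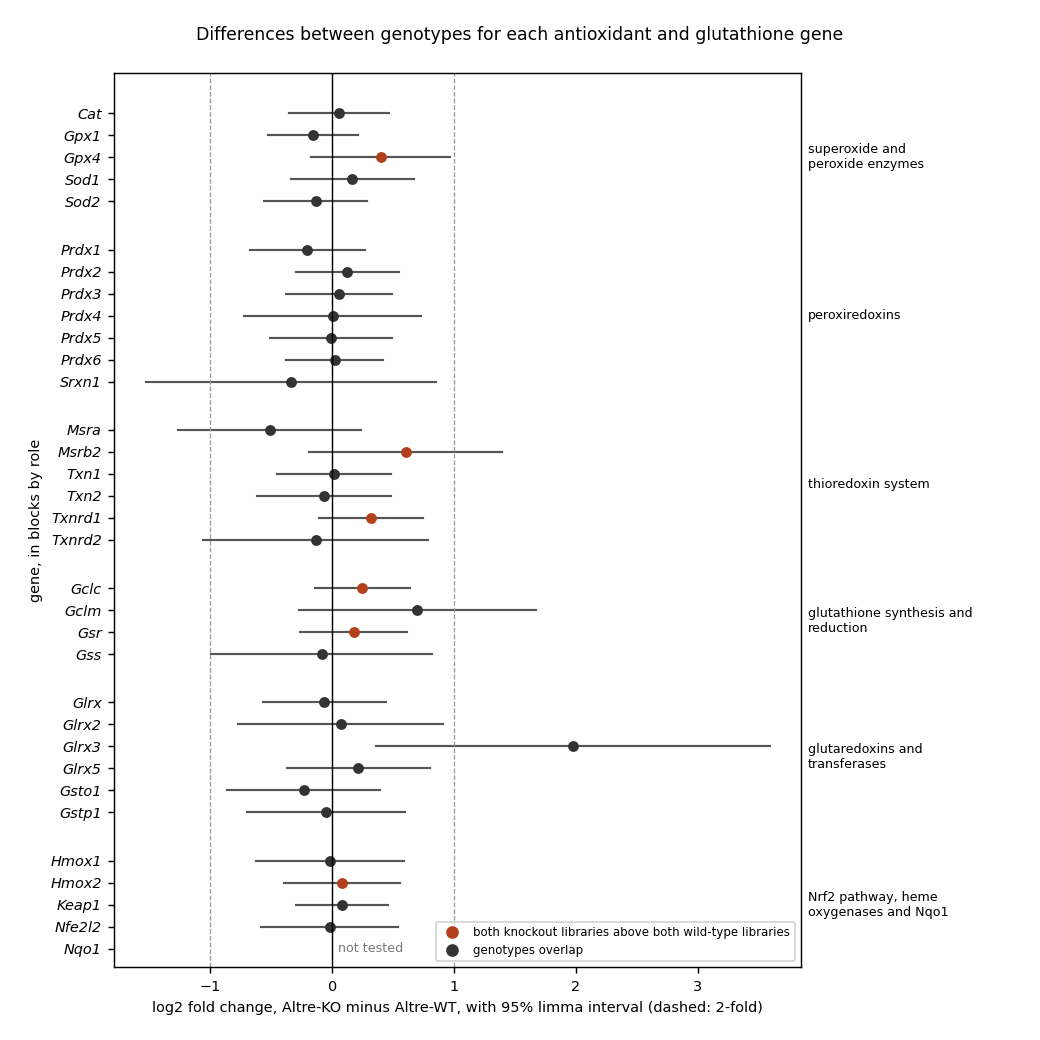
Log2 fold change of each gene, knockout minus wild type, on the x axis, with its 95% limma interval as a line, red points where both knockout libraries lay above both wild-type libraries and dashed lines at 2-fold. The intervals of 26 of the 32 tested genes lie between the dashed lines, and that of Glrx3 is the one that does not cross 0.

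In the thioredoxin system, the cytosolic reductase stood above wild type in both knockout libraries. Txnrd1 (chromosome 10, 82833951 to 82897712), which regenerates cytosolic thioredoxin, was at 69.5 and 64.3 CPM in the wild-type libraries and at 75.0 and 93.1 CPM in the knockout libraries. The knockout libraries differed from each other by more than knockout replicate 1 did from wild type. Its log2 fold change was 0.32 (95% interval -0.11 to 0.74, limma adjusted p = 0.999), and 0.16 without knockout replicate 2. Its substrate gene Txn1 was at 60.7 and 71.5 CPM in the wild-type libraries and at 81.4 and 54.2 CPM in the knockout libraries, so that the knockout libraries were the highest and the lowest of the 4. The mitochondrial pair overlapped between genotypes, with Txn2 between 32.8 and 43.2 CPM and Txnrd2 between 7.35 and 12.3 CPM.

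Neither of the methionine sulfoxide reductases Msrb2 and Msra, which repair oxidized methionine with electrons from thioredoxin, passed the test. Msrb2, the mitochondrial enzyme for the R form (chromosome 2, 19371440 to 19394976), was at 10.9 and 11.4 CPM in the wild-type libraries and at 19.9 and 15.2 CPM in the knockout libraries, without overlap. It rested on 20 to 65 estimated reads per library, and its log2 fold change was 0.60 (95% interval -0.19 to 1.40, limma adjusted p = 0.999). Msra, the enzyme for the S form (chromosome 14, 64122625 to 64455903), was at 25.7 and 20.6 CPM in the wild-type libraries and at 21.7 and 11.4 CPM in the knockout libraries. Knockout replicate 1 lay between the wild-type libraries, and the log2 fold change of -0.51 (95% interval -1.26 to 0.24, limma adjusted p = 0.999) was -0.079 without knockout replicate 2. Msrb1, the selenoenzyme of this family and a gene of a related list below, had a log2 fold change of 0.14.

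None of the 4 genes that make and regenerate glutathione passed the test. In 2 of them, the catalytic subunit and the reductase, both knockout libraries lay above both wild-type libraries, as in 14.7% of all tested genes. Gclc, the catalytic subunit of glutamate-cysteine ligase and the rate-limiting step of glutathione synthesis (chromosome 9, 77754535 to 77794485), was at 83.1 and 88.7 CPM in the wild-type libraries and at 107.2 and 97.4 CPM in the knockout libraries. Its log2 fold change was 0.25 (95% interval -0.14 to 0.64, limma adjusted p = 0.999), an interval that runs from 0.907-fold to 1.55-fold of wild type. Gsr, which regenerates glutathione, was at 59.1 and 60.1 CPM against 70.1 and 64.8 CPM, with an interval of -0.26 to 0.61. Gss, which adds glycine in the second step, was at 14.2 and 8.41 CPM against 11.3 and 9.31 CPM.

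Gclm, the modifier subunit of the ligase (chromosome 3, 122245557 to 122270732), differed widely between the knockout libraries. It was at 8.75 and 8.83 CPM in the wild-type libraries and at 8.27 and 26.3 CPM in the knockout libraries. Knockout replicate 1 was thus the lowest of the 4 libraries and knockout replicate 2 the highest, with 62 estimated reads against 16 to 27 in the others. The log2 fold change of 0.70 (95% interval -0.28 to 1.67, limma adjusted p = 0.999) was -0.079 without knockout replicate 2 and 1.48 without knockout replicate 1. Txnrd1 was also highest in knockout replicate 2, while Srxn1 (5.50 CPM there), Hmox1 (24.6 CPM) and Prdx1 (47.8 CPM) were not, the last 2 being lowest in it. These are examples and do not cover all known Nrf2 targets. In a related list below, Blvrb, Aldh2, Abcc4 and Slc48a1 were highest in that library, while Cbr1, Ftl1, Ephx1 and Trim16 were not. Over the 32 tested genes, that library was highest for 5, against 19.1% of all tested genes.

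**Figure D3:**
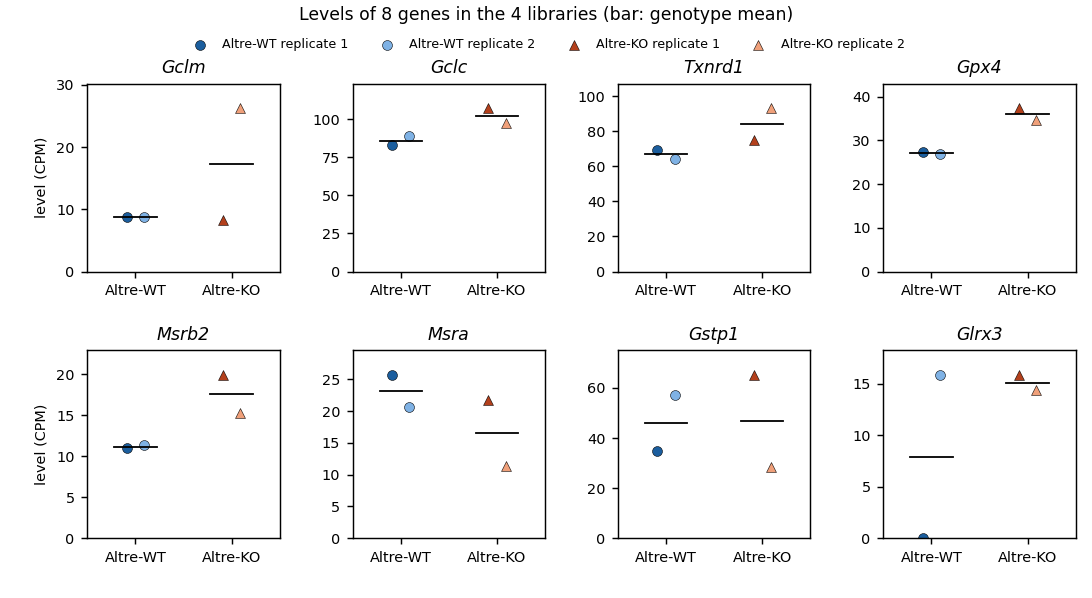
Levels in CPM of 8 genes, chosen after their values were seen, in the 4 libraries, with circles for wild type, triangles for knockout and a bar at each genotype's mean. Gclc, Txnrd1, Gpx4 and Msrb2 lie higher in both knockout libraries, while the means of Gclm, Msra, Gstp1 and Glrx3 rest on libraries of a genotype that differ widely.

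The largest log2 fold change among the 32 tested genes, that of Glrx3, rested on a single library. Glrx3, a cytosolic glutaredoxin that carries iron-sulfur clusters (chromosome 7, 137437614 to 137468594), was listed at 0 in wild-type replicate 1 and was at 15.9 CPM in wild-type replicate 2, against 15.9 and 14.4 CPM in the knockout libraries. The other 3 libraries were thus alike. At their mean of 15.4 CPM, wild-type replicate 1 would have held 28.1 estimated reads, and 3 reads would have been 1.64 CPM. The log2 fold change was 1.97 (95% interval 0.36 to 3.59, limma adjusted p = 0.999). It was -0.065 without wild-type replicate 1, and 4.01 without wild-type replicate 2, where it passed the test (limma adjusted p = 2.15e-05). In that fit the library listed at 0 is the only wild-type one and is assumed to vary like the knockout libraries, so the p says nothing of the spread within wild type. Over alternatives its adjusted p ran from that value to 1.00. The estimated reads of Glrx3 were fractional in the 3 libraries that had any (37.7, 51.8 and 34.0), so reads were counted in parts, and with which genes they were shared was not tested. Genes at 0 in 1 library and at 10 CPM or more in the other 3 numbered 2 in wild-type replicate 1 of 8267 such genes, Glrx3 and Gm28043, and 0 in each of the other libraries. For this reason Glrx3 is described only as listed at 0 there.

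The other glutaredoxins differed between libraries of 1 genotype more than between genotypes. Glrx, the main cytosolic glutaredoxin, was at 53.0 and 40.8 CPM in the wild-type libraries and at 45.6 and 43.2 CPM in the knockout libraries. Glrx5, which serves iron-sulfur cluster assembly in mitochondria, was at 43.2 and 25.2 CPM against 38.0 and 39.0 CPM. The mitochondrial Glrx2 lay between 11.0 and 14.1 CPM.

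Both glutathione transferases of the omega and pi classes varied about 2-fold within a genotype. Gsto1 (chromosome 19, 47854970 to 47864790), which reduces mixed disulfides, was at 53.0 and 26.5 CPM in the wild-type libraries and at 29.1 and 34.7 CPM in the knockout libraries. Wild-type replicate 1 alone was high, and the log2 fold change of -0.23 (95% interval -0.86 to 0.39, limma adjusted p = 0.999) was 0.25 without it. Gstp1, which conjugates glutathione to electrophiles, was at 35.0 and 57.0 CPM in the wild-type libraries and at 65.2 and 28.4 CPM in the knockout libraries. Its extremes were both knockout libraries, and the genotype means were nearly equal (46.0 ± 15.5 and 46.8 ± 26.0 CPM, SD, n = 2). Its reads were fractional in wild-type replicate 2. It has a near copy, Gstp2, at 0.60 CPM or less, so the split of reads between them is uncertain.

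Gstp1 shared its order of libraries with Prdx6, Txn1 and Glrx2, highest in knockout replicate 1, then wild-type replicates 2 and 1, and lowest in knockout replicate 2. These were 4 of the 32 genes, against 5.58% of all tested genes with that order. Other orders also held 4 genes each. They were those of Gsr, Gclc, Hmox2 and Msrb2 (5.31% of all tested genes) and of Cat, Prdx4, Txnrd2 and Gclm (4.57%). The macrophage lysozyme gene Lyz2 had the order of Gstp1. It was at 102.3 and 154.7 CPM in the wild-type libraries and 165.0 and 66.1 CPM in the knockout libraries. The summed level of the 12 Kupffer cell and macrophage markers followed it. The other 11 without Lyz2 summed to 114.3 and 160.6 CPM in the wild-type libraries and 154.3 and 118.5 CPM in the knockout libraries. There too wild-type replicate 2 and knockout replicate 1 were the higher libraries, but wild-type replicate 2 was highest and wild-type replicate 1 lowest. The part of macrophages in the levels of Gstp1, Prdx6, Txn1 and Glrx2 was not tested. Over the 32 genes, knockout replicate 1 was the highest library for 14 (30.7% of all tested genes), wild-type replicate 1 for 10 (25.4%), knockout replicate 2 for 5 (19.1%) and wild-type replicate 2 for 3 (24.8%).

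The genes of both regulators of the pathway overlapped between genotypes. Nfe2l2, which encodes Nrf2 (chromosome 2, 75675513 to 75704641), was at 31.2 and 38.3 CPM in the wild-type libraries and at 38.0 and 30.5 CPM in the knockout libraries. Each genotype had a higher and a lower library, and the log2 fold change was -0.021 (95% interval -0.58 to 0.54, limma adjusted p = 0.999). Keap1, its repressor (chromosome 9, 21229730 to 21239361), was at 109.4 and 103.0 CPM in the wild-type libraries and at 120.6 and 104.6 CPM in the knockout libraries, overlapping, with a log2 fold change of 0.081 (95% interval -0.30 to 0.46, limma adjusted p = 0.999). The inducible heme oxygenase gene Hmox1, a strong Nrf2 target, was at 30.6 and 25.6 CPM against 31.2 and 24.6 CPM. Its constitutive counterpart Hmox2 was at 47.4 and 48.8 CPM against 52.0 and 49.7 CPM, without overlap but within 1.10-fold from the lowest to the highest library, and with fractional reads in 3 libraries.

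Around these genes, 7 lists of the same pathways gave no call either. Of their 144 genes, 141 were listed and 100 tested, and 0 passed the limma test, against 0.0381% of all tested genes. At an unadjusted p under 0.05 there were 6 of the 100, against 3.66%. In knockout 48 were higher and 52 lower. Both knockout libraries lay above both wild-type libraries for 19 of the 100 (14.7% of all tested genes) and below for 18 (16.1%). The thioredoxin relatives and methionine repair genes had 14 of 19 tested members higher, and the median of their log2 fold changes was 0.14 against -0.013 over all tested genes. Their smallest p values belonged to Selenok, a selenoprotein of the endoplasmic reticulum (25.7 and 29.4 CPM in the wild-type libraries, 40.4 and 41.9 CPM in the knockout libraries), and to the thioredoxin-domain genes Txndc12 (28.4 and 31.5 against 50.8 and 39.0 CPM) and Txndc15 (30.6 and 39.9 against 57.9 and 43.6 CPM). These 3 were among the 6 of the 19 whose knockout libraries both lay above wild type, and 1 of the 19 lay below. Log2 fold changes were 0.56 for Selenok, 0.56 for Txndc12 and 0.51 for Txndc15 (limma adjusted p = 0.999 for each). Without knockout replicate 1 they were 0.59, 0.37 and 0.31 in that order. Txnip, which binds and inhibits thioredoxin, was abundant in every library, at 981 to 1082 CPM; it was named for its level after the values were seen.

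Other enzymes of peroxide and superoxide removal had 2 of 9 tested members higher, and the median of their log2 fold changes was -0.13. Park7, the oxidative stress protein DJ-1, was at 109.4 and 116.9 CPM in the wild-type libraries and at 146.7 and 148.6 CPM in the knockout libraries (log2 fold change 0.38, 95% interval 0.026 to 0.74, limma adjusted p = 0.999). For the lactonase gene Pon2 the difference was -0.40 on the log2 scale, and -0.065 when knockout replicate 2 was left out. For Aifm2, a suppressor of ferroptosis at 6.73 CPM or less, it was -1.15, and -0.30 when knockout replicate 1 was left out. Glutathione transferases and turnover genes had 7 of 15 tested members higher and a median of -0.0033, and 6 of the 37 were at 0 in all libraries, among them Gsta1, Gsta2 and Chac1. Esd, which hydrolyses S-formylglutathione, was at 41.0 and 51.7 CPM against 64.0 and 64.8 CPM, while Gstk1 and Hagh, the glyoxalase II gene, had log2 fold changes of 1.37 and 0.77. Gstk1 was at 0.55 CPM in wild-type replicate 1 and at 5.04 to 7.04 CPM elsewhere, and its difference was 0.39 without that library. That of Hagh was 0.36 without knockout replicate 1.

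Partners, regulators and other known targets of Nrf2 had 11 of 24 tested members higher, and the median of their log2 fold changes was -0.021. Both knockout libraries lay above both wild-type libraries for 2 of the 24 (14.7% of all tested genes) and below for 7 (16.1%). The aldose reductase gene Akr1b3 was at 5.84 and 25.3 CPM in the wild-type libraries and at 4.46 and 4.10 CPM in the knockout libraries, so its log2 fold change of -1.34 rested largely on wild-type replicate 2 and was -0.37 without it. Its reads were fractional in all 4 libraries, as were those of Rpl30 below, so both values are uncertain. Maff, a small Maf protein that pairs with Nrf2, was at 14.2 and 13.0 CPM against 6.12 and 9.31 CPM, without overlap, and Gsk3b had a log2 fold change of -0.28. Genes that supply NADPH, the source of electrons for both reductases, had 6 of 16 tested members higher and a median of -0.067. Log2 fold changes were -0.72 for Idh1 (-0.14 without knockout replicate 2), 0.91 for Aldh1l1, which reached 5.51 CPM at most, and 0.24 for Taldo1, the transaldolase gene (0.047 without knockout replicate 1).

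Genes of selenoprotein synthesis, which Gpx1, Gpx4, Txnrd1 and Txnrd2 need, had 5 of 9 tested members higher and a median log2 fold change of 0.019. Log2 fold changes were 0.89 for Rpl30, -0.27 for Secisbp2l (-0.018 without knockout replicate 1) and -0.38 for Eefsec, the elongation factor that brings selenocysteine to the ribosome. Genes of the NADPH oxidase, a source of superoxide in phagocytes, had 3 of 8 tested members higher and a median of -0.062. Its catalytic subunit gene Cybb was at 94.6 and 139.6 CPM in the wild-type libraries and at 96.1 and 72.8 CPM in the knockout libraries (log2 fold change -0.45, or -0.17 without wild-type replicate 2, limma adjusted p = 0.999), with overlap, and the small GTPase gene Rac2 had a log2 fold change of -0.21. Of the macrophage markers that reached 5 CPM in any library, Lyz2, Cd5l, C1qa and C1qc were likewise lowest in knockout replicate 2. Cd5l also had the same order of libraries as Cybb. The others, Csf1r, Adgre1 and C1qb, were lowest in wild-type replicate 1 (Csf1r at 29.0 CPM, against 40.6 to 60.1 CPM elsewhere). The part of macrophages in the level of Cybb was not tested.

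**Figure D4:**
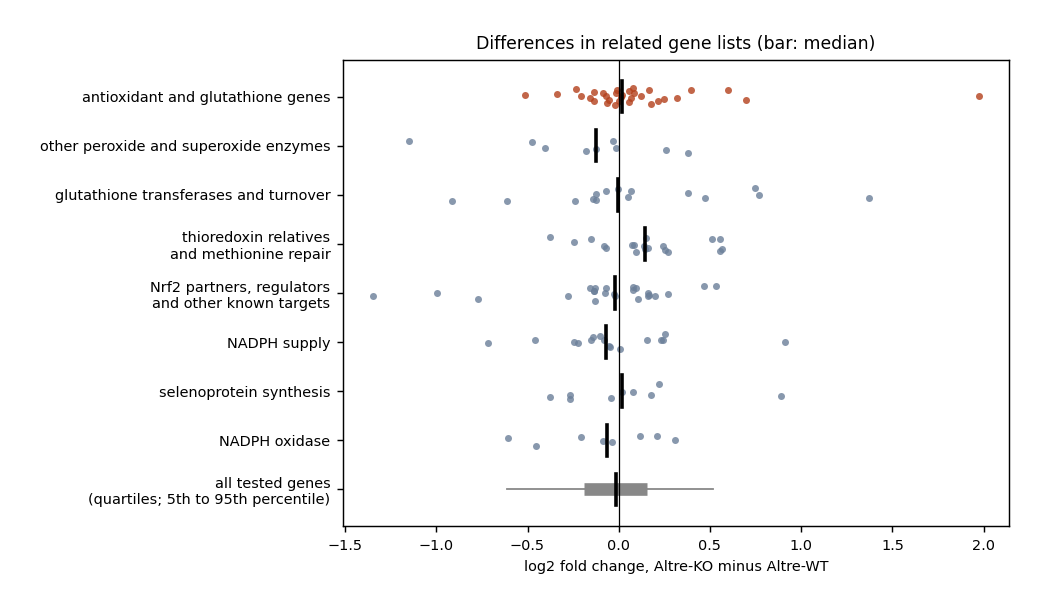
Log2 fold change, knockout minus wild type, on the x axis for each tested gene of the 33 (red) and of 7 related lists (blue), with a bar at each median. The bottom row shows all tested genes, with a thick bar from the 25th to the 75th percentile and a thin line from the 5th to the 95th; every list's median lies inside the thick bar.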

How the data were processed

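The 4 libraries were compared as 2 Altre-WT against 2 Altre-KO. Per the labels' protocols, a Qiagen micro kit yielded the RNA and a SMARTER mRNA kit the libraries. The submitters' processing notes name cutadapt, STAR, DESeq2 and mm10 (the GRCm38 assembly), and neither their roles and versions nor the counter and annotation. The authors deposited CPM per library, per the file headers, scaled so that listed genes sum to the same total. They also deposited RPM per library, as read from the values, with 0.0001 added. The authors' deposited means are a signal in CPM, with the log2 of their ratio and p-values (raw and adjusted) of a test they do not name.

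What 1 read is worth was estimated as the smallest common step of the RPM values. Between 93.7% and 94.0% of values below 50 reads were whole within 0.02 of a read, so values were not treated as counts. Genes with at least 2 libraries at 4.22 CPM (10 estimated reads at the median depth) were tested with limma 3.58.1 (R 4.3.3, variance trend, robust off) on log2(CPM + 1), with genotype as the only term and Benjamini-Hochberg adjustment over all tested genes at 0.05. The code was checked on simulated data. Symbols, listed in capitals, were matched to GENCODE M21 (23519), RefSeq symbols (269) or RefSeq synonyms (547), and 117 were left as listed. Positions and merged exon lengths are from GENCODE M21 on GRCm38. Full statistics were given for the 4 genes with the smallest p in each direction and for Nfe2l2, Keap1, Gclc and Gclm. In each related list the 3 with the smallest p were named. Genes outside this rule are given by levels, with these exceptions. Gpx4, Gsr and Srxn1, chosen after their values were seen, also have their difference or interval. Msrb1, of a related list, is given by its log2 fold change only. The values of 1 gene that this rule names are not reported here. The genes, lists and tests were chosen with earlier results of these data known. Alternatives covered limma-voom, scaling, the filter, the pseudocount, the replicate number as a block and leaving out each library.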

Additional observations from a re-analysis of the deposited data

How the results depend on the processing

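In each alternative that kept all 4 libraries, 0 antioxidant or glutathione genes passed the limma test, and the related lists gave 0 calls in every alternative run. Leaving out 1 library, the genes passing ranged from 0 to 1 (Glrx3, without wild-type replicate 2), their median log2 fold change from -0.044 (without knockout replicate 1) to 0.12 (without knockout replicate 2), and calls among all tested genes from 6 to 16, against 4 with all libraries and 2 with a pseudocount of 0.1. The 6 genes whose genotypes did not overlap stayed 6 in number under each scaling. Leaving out 1 library, log2 fold changes of both signs were found for Glrx3 (-0.065 to 4.01), Gclm (-0.079 to 1.48), Prdx1 (-0.49 to 0.074), Gsto1 (-0.72 to 0.25), Nfe2l2 (-0.17 to 0.13) and Keap1 (-0.021 to 0.18); the cause was not tested. Of the 32 genes, between 5 and 12 changed sign without a single library, and 0 to 2 under the other alternatives. With the replicate number as a block (replicate block), 0 of the 32 genes and 6 of all tested genes passed. Libraries with the same number did not deviate together (r = -0.010 across 10486 genes), so the numbers were not taken as pairs. Depth limits genes of few reads most, such as Srxn1 and Nqo1.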
